A study of Bos taurus with 8 samples.

Results

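The insulin-like growth factor (IGF) axis was examined in rumen epithelium through 9 genes: the ligands IGF1 and IGF2, the receptors IGF1R and INSR, and the binding proteins IGFBP2, IGFBP3, IGFBP4, IGFBP5 and IGFBP6. The genes were taken by name from the array design, where each had 1 probe, so that 9 of 15008 probes are described. Rumen-fistulated Holstein bulls received a high-grain diet with wood kraft pulp, a cellulose-rich fibre, in place of 50% of the corn flakes (WP), or the high-grain diet with all of its corn flakes (control). Every animal had both diets in a cross-over that had no wash-out, for 14 days each. The bulls weighed 215.2 ± 20.4 kg and were 7.4 ± 0.3 months old on average, per the series text, which speaks of 5 animals. Arrays of 4 of them, calves 21, 23, 24 and 25, were analysed here, with 4 WP arrays and 4 control arrays. The sources used here do not say which diet a calf received before the other. The control animals were thus on a high-grain diet too, and no forage-fed group was part of the comparison.

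IGF1 and IGF2 are secreted growth factors that signal through the receptor tyrosine kinase IGF1R, and INSR is the closely related insulin receptor. In the circulation and between cells most IGF is held by binding proteins, which lengthen its life, carry it, and keep it from or release it to the receptor. The axis has been studied in the rumen wall because papillae grow when more fermentable grain is fed.

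Levels are log2 of the processed spot signal minus the 75th percentile of the same array, so 0 is the signal of a fairly bright probe and 1 unit is a doubling. The levels of different probes are not comparable, since each probe binds with its own strength, so each gene is compared only with itself. A spot counts as measured when the scanner software found it well above background. The arrays had 9314 to 11917 such probes, and a probe was tested if it counted as measured on 4 or more of the 8 arrays, which left 10236. The WP array of calf 24 stood apart: its negative control spots had a median signal of 4.06, against 1.20 to 1.90 elsewhere, and its control probes for the foreign sequence E1A read 40.7, against 1.36 to 1.97 elsewhere. Of the defining markers of rumen epithelium, the basal keratin KRT5 was measured on all arrays at a high level (mean 6.65 on WP, 6.67 on control). Keratin KRT4 was measured on 1 array only, and KRT13 and LGALS7 have no probe under those names.

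Each member is read through a single stretch of 60 bases, and the sequences of 5 of these probes are shown because they set what a value of that member can come from. The 60 letters of each hold at least 1 reading frame without a stop triplet. In the IGFBP5 probe the capitals mark the final triplet, which is a stop triplet when the probe is read from its first base. Read from the next base, that probe holds no stop triplet, whereas the frame that starts 1 base further does. All are written 5′ to 3′ as the array design gives them.
IGF1R: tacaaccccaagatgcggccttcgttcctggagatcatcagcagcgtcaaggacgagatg
INSR: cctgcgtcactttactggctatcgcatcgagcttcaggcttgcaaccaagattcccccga
IGFBP2: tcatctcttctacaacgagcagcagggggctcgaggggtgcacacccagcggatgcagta
IGFBP3: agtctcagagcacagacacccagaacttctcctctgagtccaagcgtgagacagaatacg
IGFBP5: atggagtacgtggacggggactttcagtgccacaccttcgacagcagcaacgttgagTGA

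On the UMD 3.1 build, per the array design, the IGF1R probe lies on the plus strand at chr21:8267711-8267770 and the INSR probe on the minus strand at chr7:17306216-17306275. IGFBP2 is read at chr2:105367026-105367085 (plus strand) and IGFBP5 at chr2:105379127-105379186 (minus strand), with 12101 bases between the starts of these neighbours. The IGFBP3 probe has 60 bases placed over 534 bases of the plus strand (chr4:76708763-76709296), so its placement is not continuous. The other probes are IGF1 at chr5:66532901-66532960 (minus strand), IGF2 at chr29:50062513-50062572 (plus strand), IGFBP4 at chr19:41337314-41337373 (plus strand) and IGFBP6 at chr5:27044024-27044083 (minus strand). Whether a probe lies in an exon or an untranslated region was not analysed here. No 2 member probes shared a run of more than 8 bases in any of the 36 pairs, although the genes are related, and each sequence occurred in 1 probe only. The IGF2 probe was designed to a partial transcript record described as similar to IGF2.

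The ligands were at the lower edge of what the arrays measured. IGF1 gave levels of -5.47, -5.77, -3.43 and -6.16 on the WP arrays of calves 21, 23, 24 and 25, against -5.53, -7.48, -7.16 and -6.07 on their control arrays. Its only measured value was on the WP array of calf 24, where the processed signal was 26.4; this is the array with the raised control spots, whose part in that value was not tested. The other 7 values were not well above background and have no order among themselves. With 1 measured array in all, no fold is given.

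The probe named for IGF2, the ligand that is also cleared by the receptor IGF2R, was not well above background on any array, and from its partial record it is not certain that it reads IGF2. The levels were -5.61, -6.84, -5.25 and -7.31 on WP, against -7.90, -7.62, -7.46 and -6.42 on control. Neither ligand was tested. Since these are pieces of tissue, fewer cells of a type and less RNA per cell cannot be told apart for any gene below.

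**Figure D1:**
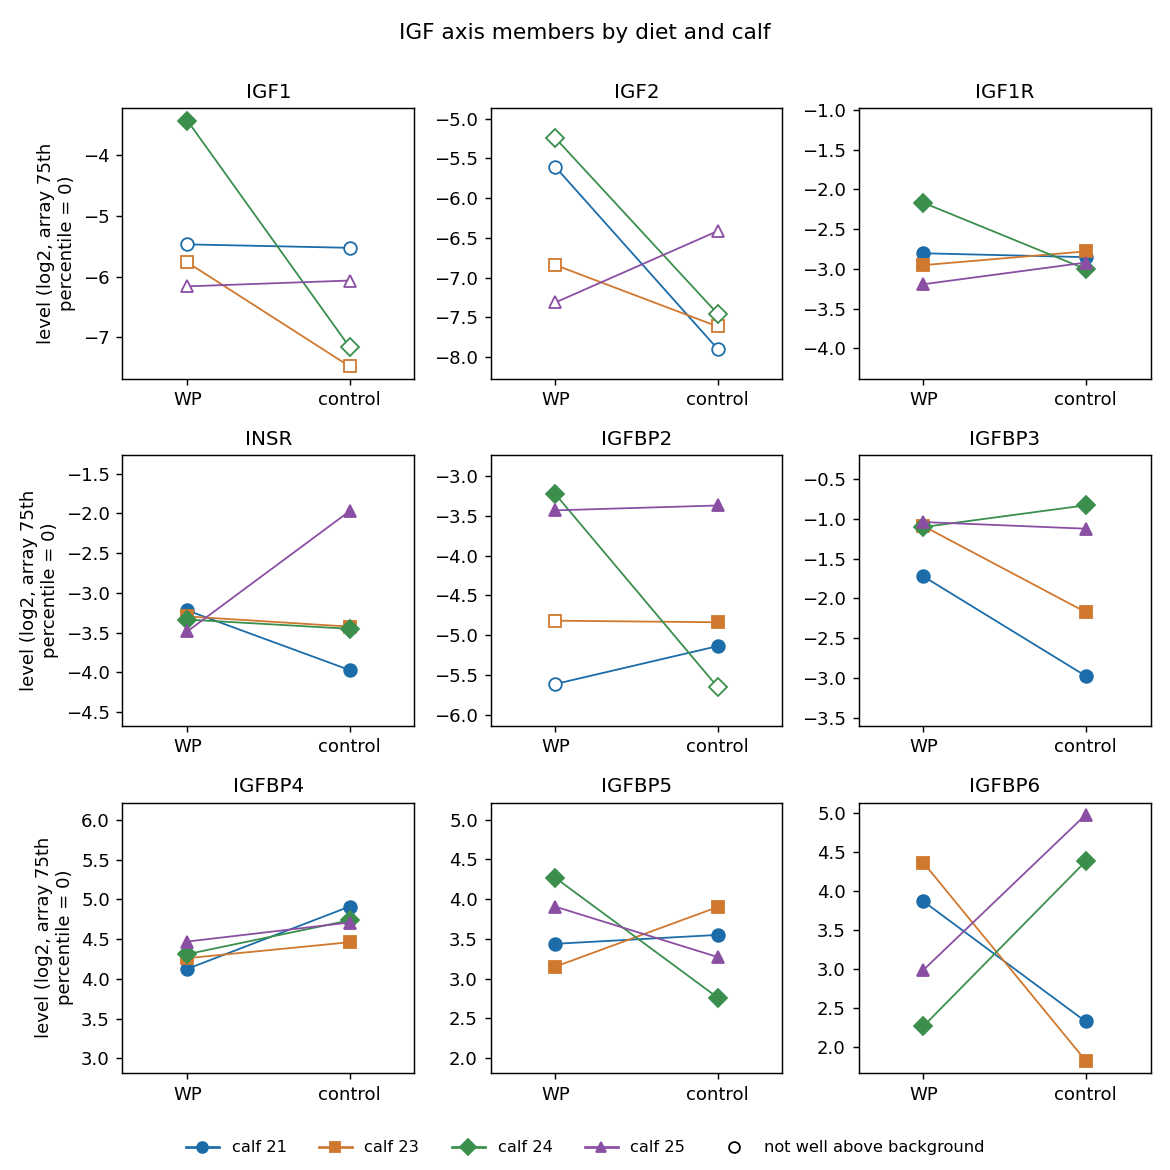
Levels of the 9 members (log2, array 75th percentile = 0) with WP on the left and control on the right of each panel; lines join the arrays of 1 calf and open symbols were not well above background. IGFBP4 is lower on WP in 4 of 4 calves with the scaling used here, while the lines of IGFBP6 cross, with calves 21 and 23 higher and calves 24 and 25 lower on WP.

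The receptors were measured on all 8 arrays, and neither differed between the diets by more than its spread between calves. IGF1R, the main signalling receptor of both ligands, gave levels of -2.80, -2.95, -2.17 and -3.19 on the WP arrays of calves 21, 23, 24 and 25, and -2.85, -2.78, -3.00 and -2.92 on their control arrays. The control values lay between -3.00 and -2.78, and the WP array of calf 24 was above all others. The means were -2.78 ± 0.44 on WP and -2.89 ± 0.095 on control (SD, n = 4 each), a log2 difference of 0.11 (95% interval -0.45 to 0.66; limma adjusted p = 0.877). Without calf 24 the difference was -0.13, and it was also negative, at -0.10 and -0.08, with quantile and cyclic loess scaling.

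INSR, which binds insulin and takes part in IGF signalling, gave levels of -3.22, -3.30, -3.34 and -3.48 on WP, and -3.97, -3.43, -3.45 and -1.97 on control. Here the control array of calf 25 was the high one, and the WP values lay inside the control range. The means were -3.34 ± 0.11 on WP and -3.21 ± 0.86 on control (SD, n = 4 each), with a difference of -0.13 (95% interval -1.10 to 0.84; limma adjusted p = 0.918). On WP 3 of 4 calves were higher, and without calf 25 the difference was 0.33.

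Among the binding proteins, IGFBP2 was dim. It was measured on 2 WP arrays (calves 24 and 25) and 3 control arrays (calves 21, 23 and 25). The levels were -5.61, -4.82, -3.23 and -3.43 on the WP arrays of calves 21, 23, 24 and 25, against -5.14, -4.84, -5.65 and -3.37 on their control arrays. The fit gave a difference of 0.48 (95% interval -0.82 to 1.78; limma adjusted p = 0.762), but 3 of the 8 values behind it were not well above background, so its size is not set. Without calf 24 it was -0.17, and with quantile scaling it was -0.18. Only calf 25 was measured on both diets, and there IGFBP2 differed by -0.06.

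IGFBP3, the main carrier of circulating IGF, was measured on all arrays. Its levels were -1.72, -1.09, -1.10 and -1.04 on WP, against -2.97, -2.17, -0.83 and -1.12 on control. Calves 21 and 23 were higher on WP by 1.25 and 1.08, calf 25 by 0.08, and calf 24 was lower (-0.27). The means were -1.24 ± 0.32 on WP and -1.77 ± 0.99 on control (SD, n = 4 each), and the difference of 0.54 had a 95% interval of -0.24 to 1.31 (limma adjusted p = 0.662). It was 0.30 without calf 21, 0.35 without calf 23 and 0.81 without calf 24. With slide row as a further block the interval was 0.20 to 0.87 (unadjusted p = 0.0109, limma adjusted p = 0.488). That fit left 2 residual degrees of freedom. Between different calves, WP minus control was -0.43 within row 1 and 1.502 within row 2, so the sign did not hold in both rows.

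IGFBP4, a binding protein that mostly holds IGF back until the protease PAPPA cuts it, was the only member lower on WP in 4 of 4 calves. The levels were 4.13, 4.26, 4.31 and 4.47 on the WP arrays of calves 21, 23, 24 and 25, against 4.91, 4.46, 4.74 and 4.71 on their control arrays. Each calf was lower on WP, by -0.78, -0.20, -0.43 and -0.24, and the groups met only at the WP array of calf 25 and the control array of calf 23. The means were 4.29 ± 0.14 on WP and 4.70 ± 0.18 on control (SD, n = 4 each), a difference of -0.41 (SE 0.15, 95% interval -0.79 to -0.04), so that control was 1.33-fold higher. The unadjusted p was 0.0366 and the limma adjusted p was 0.658, so IGFBP4 did not pass the threshold of 0.05. Among all probes, 1.75% were lower on WP at an unadjusted p under 0.05, and 5.41% were lower in 4 of 4 calves. The difference was negative in 15 of 15 alternatives, from -0.53 to -0.29, but many of these could not turn its sign. Changes of the filter, the blocks or the intensity trend leave it at -0.41, and with each calf lower no calf left out could turn it. Where the sign could turn, it was -0.36 with quantile scaling, -0.40 with cyclic loess and -0.44 with normexp. Within slide rows 1 and 2 it was -0.53 and -0.30.

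**Figure D2:**
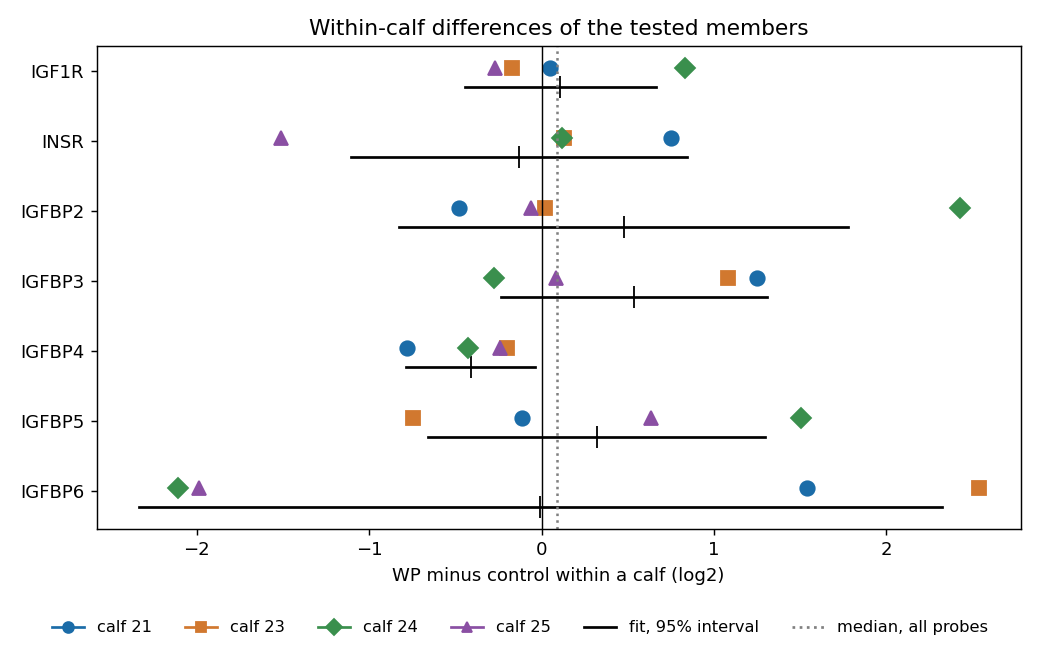
Within-calf differences (WP minus control, log2) of the 7 tested members, with the mean and 95% interval of the limma fit as a bar below the 4 calves' points; the dotted line is the median of all tested probes, 0.09. The interval of IGFBP4 alone lies off 0, and that of IGFBP6 spans -2.34 to 2.32.

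IGFBP5, which binds to extracellular matrix as well as to IGF, gave levels of 3.44, 3.15, 4.27 and 3.91 on WP, against 3.55, 3.90, 2.76 and 3.27 on control. Calves 24 and 25 were higher on WP, by 1.51 and 0.63, and calves 21 and 23 lower, by -0.11 and -0.75. The mean difference was 0.32 (95% interval -0.66 to 1.30; limma adjusted p = 0.786), and without calf 24 it was -0.08.

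IGFBP6, which prefers IGF2 over IGF1, varied most between the arrays of a calf and had a mean difference near 0 between the diets. Its levels were 3.87, 4.37, 2.27 and 2.99 on WP, against 2.33, 1.83, 4.38 and 4.98 on control. Calves 21 and 23 were higher on WP by 1.54 and 2.54, and calves 24 and 25 were lower by -2.11 and -1.99. The mean difference was -0.01 (95% interval -2.34 to 2.32; limma adjusted p = 0.998). The SD of these 4 differences was 2.39, above that of 99.7% of the tested probes, whose median SD was 0.35. By the same measure IGFBP2 stood at the 95.8th percentile, IGFBP5 at the 90.0th and INSR at the 89.9th, while IGFBP4 stood at the 35.6th.

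The arrays of IGFBP6 fell into groups by their place on the slide. All arrays shared 1 slide, on which row 1 held the WP arrays of calves 21 and 23 and the control arrays of calves 24 and 25, and row 2 held the other array of each calf. IGFBP6 averaged 4.40 ± 0.45 in row 1 and 2.36 ± 0.48 in row 2 (SD, n = 4 each), a 4.12-fold difference, and the rows did not overlap. The log2 difference, row 1 minus row 2, was 2.04 (SE 0.20, 95% interval 1.49 to 2.60; unadjusted p = 0.000509, limma adjusted p = 0.255) in a fit with diet and calf. It ranked 11th by size and 14th by p of 10236 probes, and 3.35% of all probes were higher in row 1 with no overlap. This contrast was chosen after the values were seen, since the design names only the diets.

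IGFBP5 showed the opposite order, with 3.16 ± 0.29 in row 1 and 3.91 ± 0.29 in row 2 (SD, n = 4 each), and its rows did not overlap either, as for 3.57% of all probes in that direction and 6.93% in either. Its row difference was -0.75 (95% interval -1.34 to -0.16; unadjusted p = 0.0243, limma adjusted p = 0.345). IGFBP3 gave 0.63 for row 1 minus row 2 (unadjusted p = 0.00614, limma adjusted p = 0.298), with rows that overlapped. IGFBP4 gave -0.08. At an unadjusted p under 0.05, 2 of 7 members were higher in row 1 (5.6% of all probes were) and 1 was lower (7.3% of all probes were; 12.9% in either direction), and 0 probes passed the adjusted threshold in limma (smallest adjusted p 0.231). With normexp background correction and with an intensity trend IGFBP6 did pass, with adjusted p of 0.00472 and 0.00174, among 92 and 260 probes; over 12 alternatives its adjusted p ran from 0.00174 to 0.783.

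Within a row the diets can be compared between different calves, with 2 arrays on each diet. IGFBP6 differed by -0.56 (WP minus control) in row 1 and 0.55 in row 2, IGFBP5 by 0.28 and 0.36, IGFBP3 by -0.43 and 1.502, and IGFBP4 by -0.53 and -0.30. Thus IGFBP4 and IGFBP5 kept their sign in both rows and the others did not. Every calf had 1 array in each row, and the rows pair calves 21 and 23 against calves 24 and 25. Slide row, feeding period and a diet response particular to a pair of calves cannot be told apart here.

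**Figure D3:**
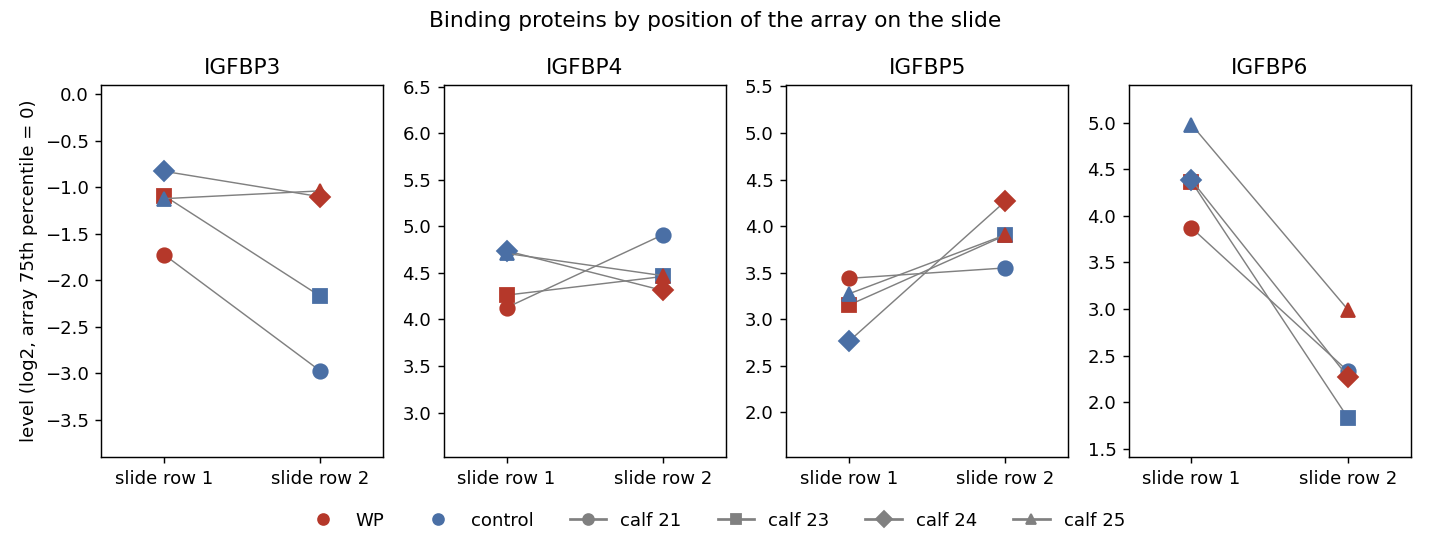
Levels of 4 binding proteins (log2, array 75th percentile = 0) by slide row, with WP arrays in red, control arrays in blue and lines joining the arrays of 1 calf. IGFBP6 lies at 3.87 to 4.98 in row 1 and 1.83 to 2.99 in row 2, IGFBP5 runs the other way, and the rows of IGFBP4 overlap, with means of 4.46 in row 1 and 4.54 in row 2.

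Cell type markers were compared between the rows in the same way, with 0 genes past the adjusted threshold in limma. The median row difference of all tested probes, row 1 minus row 2, was -0.03. The summed levels overlapped between the rows in each list except that of macrophages and dendritic cells. A sum is set mostly by the brightest probes of its list. Of single probes, 6.93% did not overlap between the rows in either direction. By gene, the row differences of that list were AIF1 -1.36, CSF1R -0.93, CD68 -0.53, CD14 -0.02, CD86 -1.12 and LYZ -1.40. The macrophage and dendritic cell list had 6 of 10 genes tested, 0 of them higher in row 1, with a median row difference of -1.02 and a summed level of 3.08 to 3.65 in row 1 and 4.13 to 9.13 in row 2, in multiples of the array's 75th percentile. The fibroblast and connective tissue list had 1 of 15 tested genes higher in row 1 (median -0.43), with sums of 14.7 to 31.0 in row 1 and 19.4 to 58.9 in row 2. Of the epithelium list, 11 of 16 were higher in row 1 (median 0.21), with sums of 1166 to 1442 in row 1 and 1053 to 1238 in row 2. Of the T, B and NK cell list, 3 of 8 were higher in row 1 (median -0.45), with sums of 2.72 to 3.64 in row 1 and 2.73 to 6.004 in row 2. Endothelial markers had a median row difference of 0.08 and smooth muscle markers of 0.11. The T cell receptor subunits CD3G and CD3D were named after their values were seen. CD3G, measured on all arrays, was lower in row 1 by -1.39 (unadjusted p = 0.000926, limma adjusted p = 0.255). CD3D also read lower in row 1, but it was measured on 4 arrays only. These lay mostly in row 2, where it was high, so the size of its row difference is not set and no p is given. The part of these markers in the IGFBP5 and IGFBP6 values was not tested.

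Across the members, 7 of 9 were tested, 6 of them measured on all 8 arrays. Of these 7, 4 had positive and 3 negative differences between WP and control, with a median of 0.11 beside 0.09 for all tested probes. None passed the adjusted threshold in limma, as was so for 0 of 10236 probes (percent called 0; smallest adjusted p 0.658). At an unadjusted p under 0.05, 1 of 7 members was lower (IGFBP4) and 0 were higher, beside 179 and 536 of all probes (6.99% in either direction). That split of all probes depends on scaling: quantile scaling gave 195 higher and 333 lower and moved the median of all probes to -0.01, and cyclic loess gave 265 and 410. With slide row as a further block IGFBP3 was higher at an unadjusted p under 0.05 as well. In that fit 668 of all probes were higher and 349 lower at this threshold. Within rows 1 and 2 the differences of IGFBP3 had opposite signs. None of the 7 was higher on WP in 4 of 4 calves, as 12% of all probes were. None of the 7 had WP and control arrays that did not overlap, where 3.67% of all probes lay higher on WP without overlap and 1.19% lower.

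The rest of the pathway was read from 3 lists with 54 genes, of which 47 had a probe and 32 were tested. Of the 32, 20 had positive and 12 negative differences, with a median of 0.11, and none passed the adjusted threshold. At an unadjusted p under 0.05, 2 were higher on WP (5.24% of all probes were) and 0 were lower. With quantile scaling both of these had negative values.

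At the extracellular and receptor level 4 of 12 genes were tested and all 4 had positive differences, with a median of 0.14. IGF2R, the receptor that clears IGF2, averaged 2.64 ± 0.13 on WP and 2.52 ± 0.19 on control (SD, n = 4 each; difference 0.12, limma adjusted p = 0.782). IGFBP7, a low-affinity relative of the binding proteins, differed by 0.16 with an SD of 0.90 over the calves (limma adjusted p = 0.895), and by -0.06 without calf 25. STC1, a stanniocalcin that can inhibit the protease of IGFBP4, differed by 0.71 with an SD of 1.14 (limma adjusted p = 0.667): it was higher on WP in calves 21 and 23, by 0.91 and 2.24, and lower in calves 24 and 25, by -0.11 and -0.21. Without calf 23 the difference was 0.20. With slide row as a further block the unadjusted p of STC1 was 0.0490 (limma adjusted p = 0.488). That fit had 668 of all probes higher on WP at an unadjusted p under 0.05. Within row 1 STC1 differed by -0.11 and within row 2 by 1.52. IGFBP1, the growth hormone receptor GHR and the receptor adaptor IRS1 were not well above background on any array, and IGFALS, which joins the circulating complex, was so only on the WP array of calf 24. PAPPA, STC2 and IRS2 have no probe under those names.

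Of the 36 genes that signal inside the cell, 25 were tested, with 14 positive and 11 negative differences and a median of 0.06. GRB10, an adaptor that dampens both receptors, differed by 0.60 (SD 0.50; unadjusted p = 0.0386, limma adjusted p = 0.658), with levels of -3.91 ± 0.46 on WP and -4.51 ± 0.58 on control (SD, n = 4 each), and was measured on both diets in calves 21, 24 and 25, which differed by 0.64, 1.03 and -0.11. It was -0.01 with quantile scaling and -0.16 within row 1.

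Among the mRNA-binding and imprinted partners 3 of 6 genes were tested, 2 of them positive. IGF2BP2, a protein that binds IGF2 mRNA, was measured on both diets in calves 23 and 25 only, where it was higher on WP by 0.54 and 0.15. The control spot of calf 21 and the WP spot of calf 24 were not well above background, so the size of the mean difference is not set. The levels over all arrays were -4.26 ± 0.17 on WP and -4.94 ± 0.41 on control (SD, n = 4 each; difference 0.67, unadjusted p = 0.0245, limma adjusted p = 0.658). With quantile scaling the difference was -0.14.

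**Figure D4:**
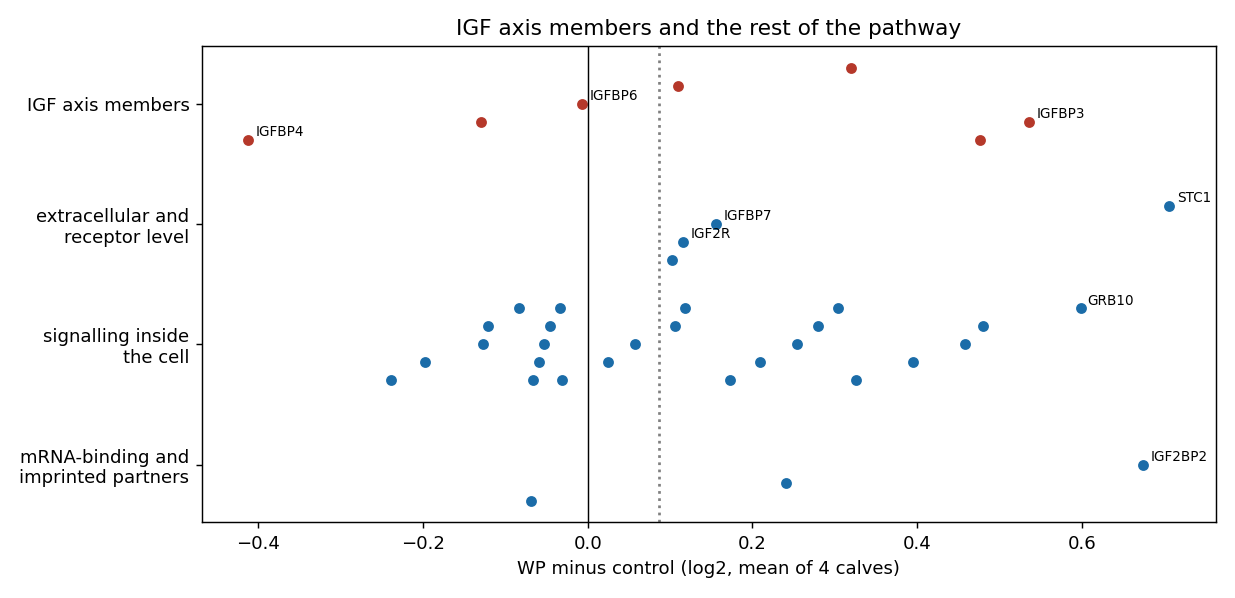
Mean differences (WP minus control, log2) of the 7 tested members in red and the 32 tested genes of the 3 pathway lists in blue, 1 point a gene; the dotted line is the median of all tested probes. IGFBP4 is the lowest point and STC1 the highest, and none passed the adjusted threshold; with quantile scaling GRB10 and IGF2BP2 lie below 0.

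For markers of cell types, 0 genes passed the adjusted threshold in limma, and the summed levels of the diets overlapped in each list. The list medians stand beside 0.09 for all tested probes, which quantile scaling moved to -0.01. These lists were read with the scaling used here only. Of the fibroblast and connective tissue list 15 of 18 genes were tested and 14 had positive differences (median 0.58), with summed levels of 26.6 to 58.9 on WP and 14.7 to 55.3 on control. By calf, this list had a median of -0.63 for calf 21, 0.71 for calf 23, 0.96 for calf 24 and 1.34 for calf 25. Endothelial markers were positive in 11 of 12 (median 0.40; sums 6.32 to 10.99 on WP and 4.63 to 8.36 on control) and smooth muscle markers in 7 of 7 (median 0.38; sums 25.3 to 31.4 on WP and 19.1 to 27.7 on control). Macrophage and dendritic cell markers were positive in 4 of 6 (median 0.12; sums 3.08 to 6.22 on WP and 3.24 to 9.13 on control), and T, B and NK cell markers in 1 of 8 (median -0.29; sums 2.72 to 3.50 on WP and 3.13 to 6.004 on control). Epithelial markers were split, with 8 of 16 positive and sums of 1053 to 1442 on WP and 1118 to 1333 on control. PDGFRB, CDH5, CNN1, DES, CD163, ITGAM, CD3E, CD4, CD79A and MS4A1 were not well above background on enough arrays to be tested. The part of these cells in the members' differences was not tested.

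For the members measured on all arrays, the genes of most similar pattern are given as a description, by Pearson's r over the 8 arrays of 4 calves among 8601 probes. Arrays of 1 calf share their animal and arrays of 1 slide row their place on the slide, so the 8 arrays are not independent. IGFBP6 was closest to SLC39A6 (r = 0.986), CALU and NUDT14, and IGFBP5 to ABCB1 (r = 0.968), USP40 and INTS5. IGFBP4 was closest to PSORS1C2 (r = 0.979), TAP and TMEM126A, and IGFBP3 to DHX36 (r = 0.975), OFD1 and REEP3. IGF1R was closest to POLL (r = 0.983), NUDT18 and THAP1, and INSR to KCNC4, BRD2 and SP2. For INSR and KCNC4 the r of 0.962 came with a Spearman rho of 0.333, since the control array of calf 25 was high in both. Between members, IGFBP5 and IGFBP6 gave the r of largest size, -0.796.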

How the data were processed

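Total RNA of rumen epithelium (500 ng) was amplified and labelled with Cy3, per the labels' protocols, and hybridised to 8 arrays that shared a slide of bovine design 072598. What the authors deposited is, for each array, the scanner output: intensity per spot, with flags and a processed signal from which background was already taken off. The file headers name Agilent Feature Extraction 11.0.1.1 for this step, whereas the submitters' processing notes name 9.5. A table of log2 values was also deposited by the authors. Compared with the scanner output, its columns equalled the log2 processed signal less a constant for the array (slopes 0.999975 to 1.00, medians -3.10 to -2.27). This settled its scale and direction and showed no centring by gene, and it was used as an alternative.

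Here, 536 control spots and 97 flagged spots were left out, spots of a probe were averaged in log2, and each array's 75th percentile was subtracted. No spot was saturated. The test took probes that the software called well above background on 4 or more arrays (10236 of 15008). Names came from the RefSeq table of ARS-UCD2.0, used for names only (11194 probes by accession, 3085 by symbol, 38 by an older symbol, 691 with the design's name). limma 3.58.1 in R 4.3.3 (lmFit, eBayes, two-sided, Benjamini-Hochberg over all tested probes, threshold 0.05) had calf as a block, because the labels number the calves alike on both diets and the study was a cross-over; the 2 arrays from a calf deviated together only weakly (r 0.00897, 0.195, 0.0600 and 0.0475 for calves 21, 23, 24 and 25). An exact sign-flip test over 4 calves cannot go under 0.125 and was not used.

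In simulated data for WP minus control (10194 probes, 200 changed), 70.1% of the changes of 4-fold were recovered, 33.2% of those of 2-fold, and 1.86% of those of 1.5-fold. The simulated noise was drawn for each probe on its own. Shifts that many probes share, as within an array or a slide row, were left out, so the recovery in the real arrays may differ. The number of arrays limits the precision. Named were the 9 members, 12 pathway genes where they have a probe, and the 3 probes most like each member measured on all 8 arrays. Members and lists were chosen with earlier results of these data known. Alternatives were normexp (offset 50), quantile and cyclic loess scaling, the value table, the filter, the calf block, an intensity trend, the slide row and each calf left out. The row is the array's position on the slide as recorded with each deposited scan. The slide row contrast was added after seeing the data; its fit has 2 residual degrees of freedom.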

Additional observations from a re-analysis of the deposited data

Results flagged for a closer look

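On the WP diet, IGFBP3 had 1 array far from the other 3: calf 21 was at -1.72 and calves 23, 24 and 25 lay between -1.10 and -1.04, so the gap was 0.907 of the group's range (Dixon's critical value for 4 samples is 0.829). The 36 groups of 4 values examined were WP levels, control levels and the within-calf differences taken from them. The WP level of IGFBP3 was the only such case, where chance alone gives about 1.8. Calf 21 was also the lowest of the control arrays, at -2.97.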

How the results depend on the processing

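The counts of probes, members and pathway genes past the adjusted threshold for WP minus control were 0 in 15 of 15 alternatives, including the fit with no replicate block and each calf left out, and the pairing changed no call for the diets. For the slide row contrast that count of probes, 0 with the settings of the report, became 92 with normexp, 8 with no replicate block and 260 with an intensity trend. Signs turned as follows, and the cause was not tested. With normexp, INSR gave 0.077 for WP minus control, and the row difference of IGF1R was 0.086 and that of IGFBP2 0.068. With quantile scaling WP minus control was -0.10 for IGF1R, -0.18 for IGFBP2, 0.0095 for IGFBP6, -0.0083 for GRB10 and -0.14 for IGF2BP2. With cyclic loess it was -0.080 for IGF1R, -0.076 for IGFBP2 and 0.010 for IGFBP6. Within row 1 it was -0.71 for IGFBP2, -0.43 for IGFBP3, -0.11 for STC1 and -0.16 for GRB10, and within row 2 it was 0.29 for INSR, 0.55 for IGFBP6 and -0.24 for IGFBP7. Leaving out each calf in turn, WP minus control ranged from -0.13 to 0.24 for IGF1R, -0.42 to 0.33 for INSR, -0.17 to 0.79 for IGFBP2, 0.30 to 0.81 for IGFBP3, -0.48 to -0.29 for IGFBP4, -0.08 to 0.68 for IGFBP5, -0.85 to 0.70 for IGFBP6, -0.063 to 0.60 for IGFBP7 and 0.20 to 1.01 for STC1. The row difference so ranged from -0.45 to 0.10 for IGF1R and -0.23 to 0.066 for IGFBP4. IGFBP4 for the diets (15 of 15 alternatives) and IGFBP6, IGFBP5 and IGFBP3 for the rows (12 of 12 each) kept their sign. Changes of the filter, the blocks or the intensity trend leave these differences as they were, so they could not turn a sign. Every calf lay on the same side for IGFBP4 by diet and for IGFBP5 and IGFBP6 by row. Leaving out a calf could not turn those signs either. IGFBP2, GRB10 and IGF2BP2 are absent from the fit of probes measured on all 8 arrays. The choice among probes of a gene was not run, since each member has 1. Signal over background limits IGF1, IGF2 and IGFBP2.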
